A study of Mus musculus with 96 samples.

Results

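The proteasome subunit genes of single red cell precursors are described here across the level of alpha-globin messenger RNA. The members are the gene symbols that begin with Psma, Psmb, Psmc, Psmd or Psme followed by a digit. They number 45 of 24321 symbols in the table, and each was given the highest of its transcript entries in a cell. All 96 cells came from murine marrow of C57BL/6 background with the genotype Rpl11 +/lox, in which 1 copy of a ribosomal protein gene is a floxed allele, and the series title calls the mice haploinsufficient for it. Every cell is labelled an erythroid precursor, and neither a Cre driver, an age, a treatment, a wild-type control nor the animal of origin is named. The cells ran from the burst-forming unit-erythroid, an early committed progenitor, to the basophilic erythroblast, and were captured one per chamber on a microfluidic C1 system, copied with SMART-Seq chemistry and sequenced. With 1 group label the cells count as 1 sample, so differences between ranges of cells carry no test. SDs describe the spread over cells, and the intervals of shares (exact Clopper-Pearson, 95%) cover counting error only.

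The 26S proteasome is the main protease of the cytosol and nucleus. Its barrel-shaped 20S core holds outer alpha rings that gate the entrance and inner beta rings that carry the protease sites. The 19S cap unfolds and feeds in substrates through a ring of ATPases in its base, while its lid cuts off the ubiquitin chains that mark a protein for destruction. In the immunoproteasome, induced by interferon and common in cells of the immune system, the beta subunits with protease sites are exchanged for other versions. Maturing erythroid cells are known to discard much of their proteome, and the ubiquitin and proteasome route also removes surplus alpha-globin chains.

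Of the 96 cells, 27 listed fewer than 1000 genes at 1 RPKM (reads scaled to transcript length in kilobases and to 1000000 mapped reads) or more and were left out. Another 13 met a marker list of another blood lineage, 1 of them the basophil list, 1 the T or NK cell list and the others the monocyte or macrophage list, the neutrophil list or both, and 1 further cell had fewer than 3 erythroid markers. The 55 cells kept were put in ranges by Hba-a1, an alpha-globin gene. The low range, below 100000 RPKM, held 7 cells with a median of 22055 RPKM. The middle range held 20 cells (257628 RPKM) and the high range, from 400000 RPKM, held 28 cells (469480 RPKM). These are ranges of a continuous measure and not cell types: 0 kept cells lay within 10% of the lower boundary and 14 within 10% of the upper one. Of 24 erythroid markers, the 7, 20 and 28 cells had medians of 17, 19 and 17 at 10 RPKM or more, so the label held in all 3 ranges, with 1 exception. Cell 68, in the low range at 723 RPKM of Hba-a1, had 3 erythroid markers, 3 monocyte or macrophage markers and listed all 3 immunoproteasome genes. Some of the results that it moves are given with and without it, and others with it only. Depth was estimated at medians of 5015, 6626 and 7709 (in units of 1000 reads) in the low, middle and high range, while the median number of genes listed was 4490, 2744 and 1412.5. Globin transcripts made up 10.9%, 72.6% and 89.9% of summed RPKM in the same order. The part of the globin share and of the gene number in the differences below was not tested beyond the rescaled values given with them.

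Transcripts for the core, base, lid and activators of the proteasome were lower where Hba-a1 was higher. Values were compared as mean log2(RPKM + 1), and a gene was called lower or higher at a difference of at least 1 in the same direction within each run code that had at least 3 cells in both ranges. These codes are read from the sample descriptions, which hold 3 of them, while titles and column headers carry SCP-1706080 throughout; what a code stands for is not given. Of the 45 genes, 40 were listed at 1 RPKM in at least 10 kept cells, and 40 of these 40 were called lower in the high than in the low range, against 71.4% of 4243 genes tested. None was called higher (2.8% of genes tested). The median difference was -4.70 over the 40 genes and -4.51 over all 45, against -2.60 over the genes tested. A gene at a high level in the low range can show a larger difference than one at a low level. The members were therefore also set beside genes listed in every low-range cell, a choice that does not match expression level. There 29 members had a median of -4.95 and 1305 genes a median of -4.46, and 90.9% of those genes were called lower. Choosing genes by the low range favours calls of lower, among members and among all such genes. The 29 members ran from -7.02 to -2.76. When globin genes were removed and each cell rescaled, the median over the 40 members was -4.14 and that over all genes -2.57. On that scale 37 of the 40 were called lower, against 66.5% of genes tested. Scaling every cell to the same total gave -5.68 for the members and moved the median of all genes by -0.64. The members thus lay 2.10 below the median of all genes as deposited, 1.57 below it without globin and 2.44 below it on the total scale. Among genes listed in every low-range cell the gap was smaller. There the medians of members and of all such genes were -4.89 and -4.27 without globin, and -6.05 and -5.45 on the total scale.

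**Figure D1:**
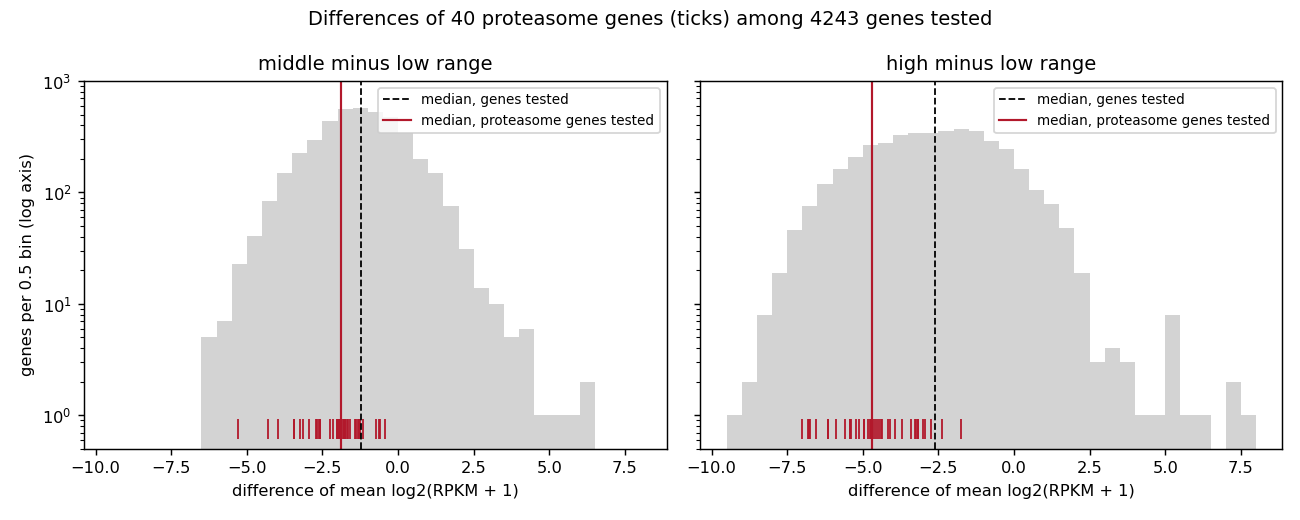
Distribution of the differences of mean log2(RPKM + 1) for 4243 genes (grey bars, counts on a log axis), in the middle minus low range at left and the high minus low range at right. Ticks are the 40 proteasome genes tested; their median (solid line) was -1.88 at left and -4.70 at right, and the median of genes tested (dashed) -1.24 and -2.60.

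The step from the low to the middle range held part of this difference. There 36 of the 40 genes were called lower (50% of genes tested), with a median of -1.88 against -1.24. None was called higher (5.42% of genes tested). Among genes listed in every low-range cell the medians were -1.96 for the members, 28 of 29 of which were called lower, and -1.87 for the 1305 genes, of which 74.9% were, so members and other well-listed genes lay close together. From the middle to the high range 29 of 40 were called lower (47% of genes tested), with a median of -2.70 against -1.22, and none was called higher (0.424%). Among genes listed in every low-range cell these medians were -2.78 and -2.18, with 25 of 29 members and 71.3% of genes called lower. The 4 genes not called lower in the first step were Psmc2, Psmc5, Psmd11 and Psmd12, of the base and the lid, and this rested on cell 68. Without that cell 40 of 40 were called lower from low to middle, against 58.8% of genes tested, and the median was -1.98 against -1.41; the direction was then checked in code SCP-1706013 alone. Without it the high minus low median was -4.79, with 40 of 40 called lower against 76.0% of genes tested.

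**Figure D2:**
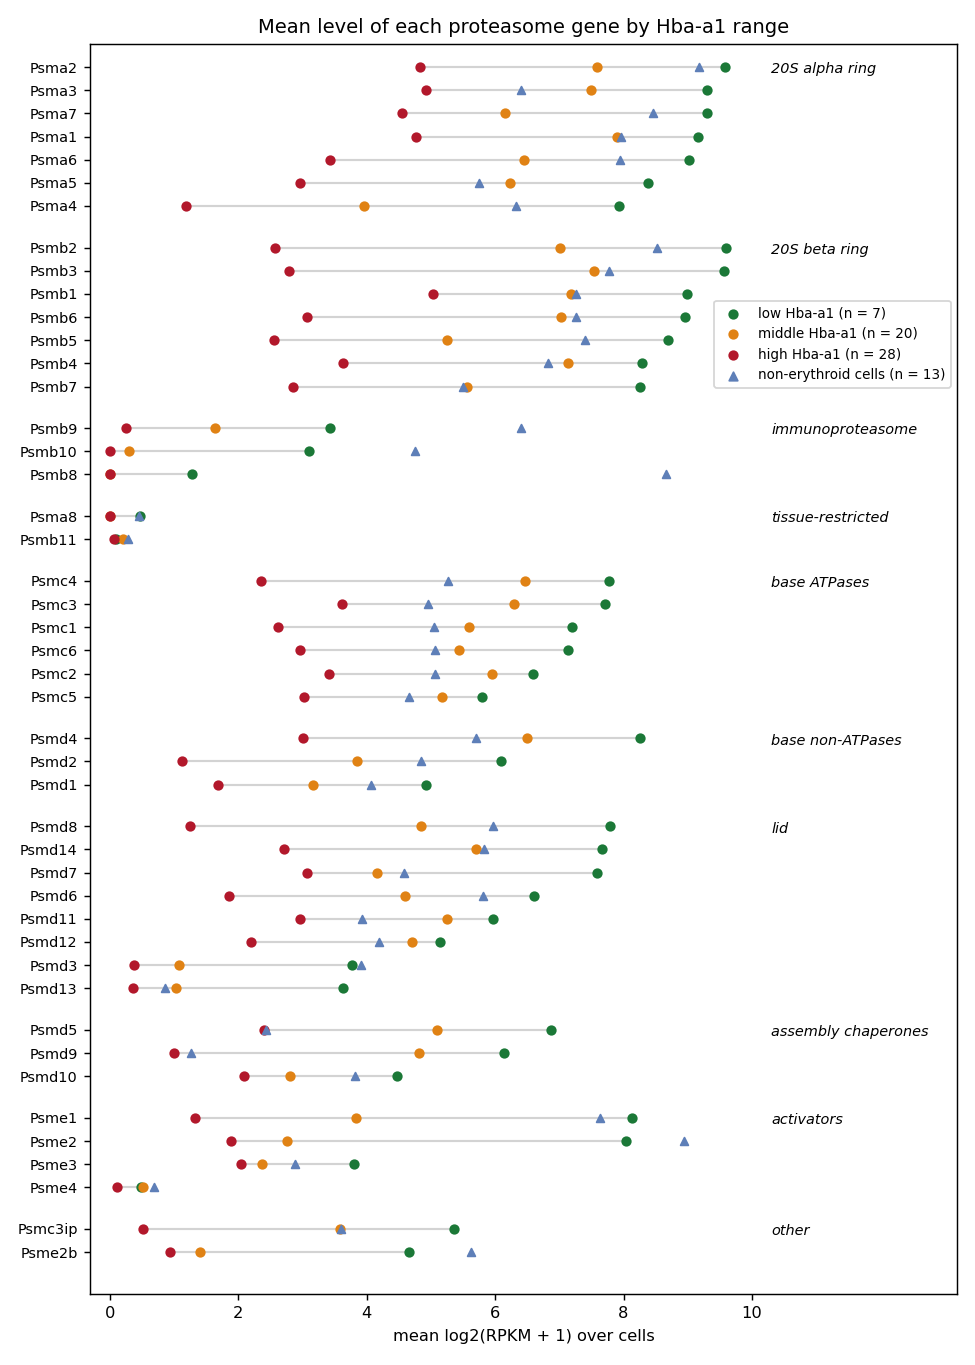
Mean log2(RPKM + 1) of each of the 45 genes, by class, in the low (7 cells), middle (20) and high (28) Hba-a1 range and in 13 non-erythroid cells (triangles); lines join the low and high means. Core genes start between 7.93 and 9.59 in the low range and end between 1.18 and 5.04 in the high range.

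The 14 constitutive genes of the core, Psma1 to Psma7 and Psmb1 to Psmb7, were the most abundant class. In the low range their mean log2 value per cell ran from 8.63 to 9.17 with a median of 8.98 (mean 8.93, SD 0.22, n = 7 cells). In the middle range it ran from 0.06 to 8.57 with a median of 6.88 (mean 6.61, SD 1.95, n = 20), and in the high range from 1.51 to 6.26 with a median of 3.45 (mean 3.51, SD 1.23, n = 28). The low-range cells were tightly grouped and lay above every cell of the other ranges, while the middle and high ranges overlapped. The order was the same within each run code, with means of 8.71, 5.24 and 3.40 in code SCP-1706013, 9.07, 7.07 and 3.97 in SCP-170608, and 9.17, 7.05 and 3.38 in SCP-1706080, where the low range was 1 cell. Of each 1000000 RPKM outside the globin genes, the 14 genes took 11881 in the low, 6672 in the middle and 2764 in the high range at the median.

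**Figure D3:**
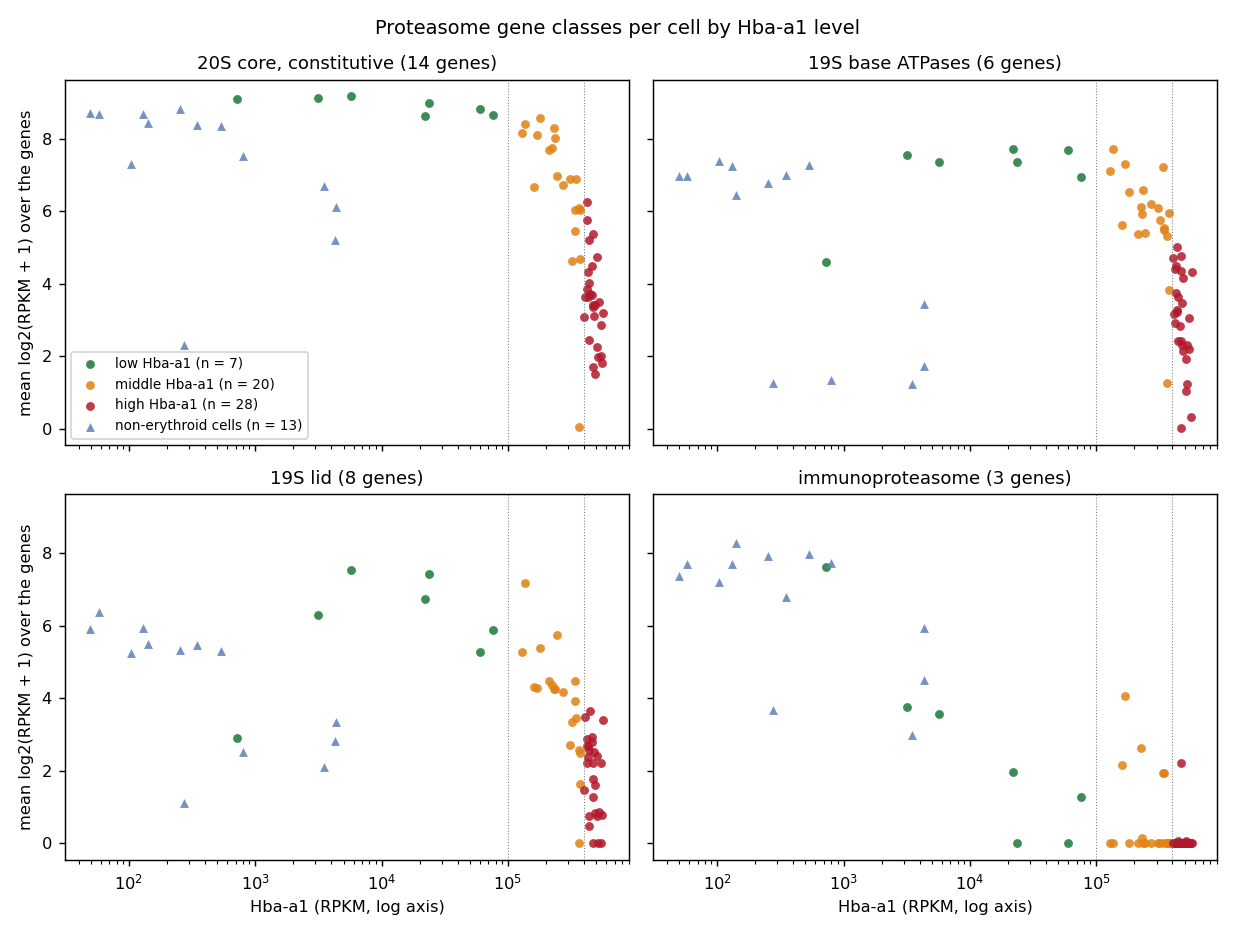
Mean log2(RPKM + 1) over the genes of 4 classes in each cell, against Hba-a1 (RPKM, log axis; dotted lines at 100000 and 400000 RPKM). Core values stay above 8.6 in the 7 low-range cells and reach 1.51 in the high range; immunoproteasome values run from 2.98 to 8.29 in the 13 non-erythroid cells (triangles), reach 7.63 in cell 68 and 4.06 in the other kept cells.

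How complete the core was in single cells followed the same order. All 14 genes were listed at 1 RPKM or more in 7 of 7 low-range cells and in 7 of 20 middle-range cells (35.0%, 15.4% to 59.2%). In the high range they were in 0 of 28 cells (exact interval 0% to 12.3%; a count of 0 taken as fewer than 3 cells allows a share of up to 10.7%). The median number listed was 14, 13 and 7.5, with 4 to 12 in the high range. This went with the number of genes listed at all: the median share of the 4243 tested genes listed in a cell was 77.8%, 54.8% and 30.3%, and that of the 40 members 95.0%, 77.5% and 40.0%. At the median depths 3 reads on a transcript of 1 kb correspond to 0.598, 0.453 and 0.389 RPKM, below the 1 RPKM used for listing. Cell 94 of the middle range, with 18 erythroid markers, 1184 genes and 364620 RPKM of Hba-a1, listed 0 of the 14.

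**Figure D4:**
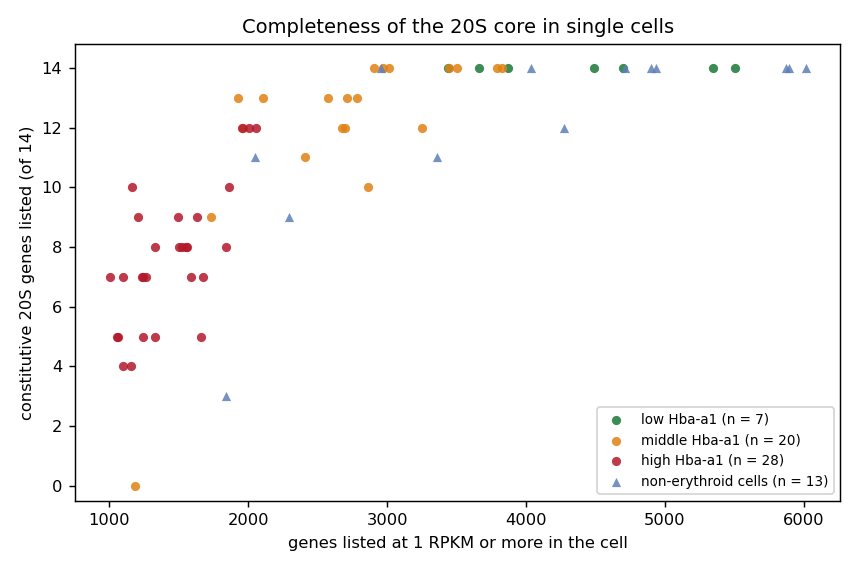
Number of the 14 constitutive 20S genes listed at 1 RPKM or more in each cell, against the number of genes listed in that cell. Low-range cells have all 14, high-range cells 4 to 12, and 1 middle-range cell has 0.

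Within the core, the genes were near each other in the low range and spread apart in the high range. The mean log2 value ran from 7.93 for Psma4 to 9.59 for Psmb2 in the low range, a span of 1.66, and from 1.18 for Psma4 to 5.04 for Psmb1 in the high range, a span of 3.86. The alpha ring had a median difference of -4.75 over its 7 genes, and 7 of 7 were called lower. Psma4 ran from 118 to 461 RPKM in the low range with a median of 240, had a median of 54.2 in the middle range with 11 of 20 cells listing it, and a median of 0 in the high range with 6 of 28. Its difference was -6.75, the largest of the ring. Psma6, which differed by -5.58, had medians of 513, 138 and 24.2 RPKM. Psma3 differed least, by -4.37: it ran from 345 to 880 RPKM in the low range and from 0 to 398 in the high range, where 22 of 28 cells listed it and the median was 69.8. The ranges of Psma4 overlapped little between low and high, since its highest high-range cell had 138 RPKM and its lowest low-range cell 118.

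The beta ring had a larger median difference, -5.88, and 7 of 7 genes were called lower. Psmb2 and Psmb3, structural subunits without a protease site, led it. Psmb2 ran from 423 to 1297 RPKM in the low range (median 875), had a median of 254 in the middle range and of 0 in the high range, where 10 of 28 cells listed it at up to 271 RPKM. Every low-range cell therefore lay above every high-range cell, and the difference was -7.02. Psmb3 behaved alike, with medians of 739, 273 and 0 RPKM and a difference of -6.78. Psmb1, also structural, differed least, by -3.95: its medians were 623, 202 and 84.2 RPKM, and 21 of 28 high-range cells listed it. Within run codes the difference of Psmb1 was -5.32 and -2.73, so its size moved with the code.

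The catalytic genes of the constitutive core were Psmb5, Psmb6 and Psmb7, which give the chymotrypsin-like, caspase-like and trypsin-like sites. Psmb5 ran from 136 to 660 RPKM in the low range with a median of 523, from 0 to 373 in the middle range with a median of 123, and from 0 to 274 in the high range with a median of 0. The low and high ranges overlapped, and 10 of 28 high-range cells listed it. The difference was -6.13, and it was -3.43 from low to middle. Psmb6 had medians of 538, 181 and 4.19 RPKM, was listed in 19 of 20 middle-range and 14 of 28 high-range cells, and differed by -5.88 between the low and high range. Its lowest low-range value, 271 RPKM, was above its highest high-range value, 190. Psmb7 had medians of 253, 134 and 0.21 RPKM and differed by -5.40. Its low-range minimum of 209 RPKM was also above its high-range maximum of 140.

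The immunoproteasome genes Psmb8, Psmb9 and Psmb10 encode the inducible versions of these catalytic subunits. Their mean levels were below those of the constitutive versions in each Hba-a1 range. Psmb8 was listed in 1 of 55 kept cells (1.82%, 0.046% to 9.72%), which was cell 68 at 489 RPKM, above Psmb5 at 136 RPKM there. Psmb8 did not pass the listing filter, and its difference of -1.27 became 0.01 without that cell. Psmb9 was listed in 4 of 7 low-range cells at up to 114 RPKM, in 5 of 20 middle-range cells at up to 243 RPKM and in 1 of 28 high-range cells at 102 RPKM. Its difference was -3.18, and -2.61 without cell 68. Psmb10 was listed in 4 of 7, 1 of 20 and 0 of 28 cells, with a low-range median of 13.5 RPKM, and did not pass the filter. Its difference was -3.10 (-2.44 without cell 68).

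In the set-aside non-erythroid cells the inducible and constitutive catalytic genes were at similar levels. At least 1 immunoproteasome gene was listed in 13 of 13 of them, against 5 of 7, 5 of 20 and 1 of 28 kept cells from low to high. All 3 were listed in 9 of 13 (69.2%, 38.6% to 90.9%), against 1 of 7, 0 of 20 and 0 of 28. Psmb8 had a median of 761 RPKM there and reached 2097 RPKM, and only the cell that met the basophil list had 0. Median depth was 4143 units of 1000 reads in these cells and 5015 in the low range. Per cell, the mean log2 value of the immunoproteasome genes minus that of Psmb5, Psmb6 and Psmb7 was -0.11 (SD 1.16, n = 13). In the kept cells this value was -6.03 (SD 2.58, n = 7; -6.85 without cell 68) in the low range, -5.30 (SD 2.66, n = 20) in the middle and -2.75 (SD 2.30, n = 28) in the high range. The change of 3.29 from low to high came with a catalytic mean that went from 8.63 to 2.83, while the immunoproteasome mean went from 2.60 to 0.08. It was 4.11 without cell 68 and 0.87 within code SCP-170608.

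**Figure D5:**
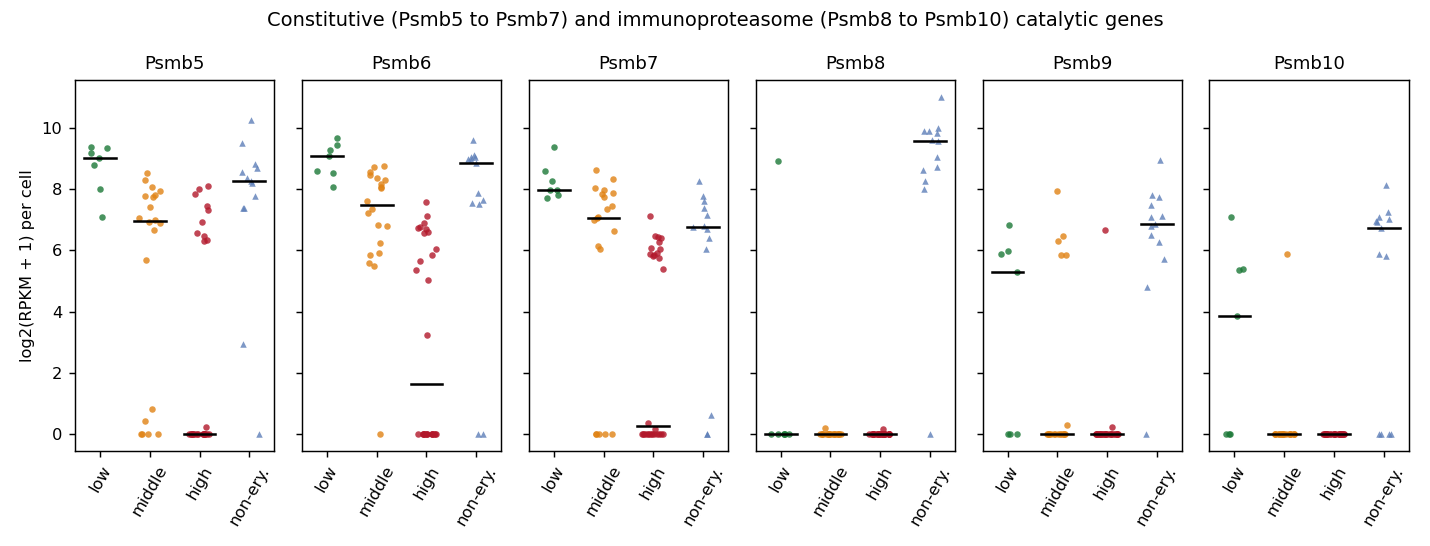
log2(RPKM + 1) in each cell for the constitutive catalytic genes Psmb5 to Psmb7 and the immunoproteasome genes Psmb8 to Psmb10, in the low, middle and high Hba-a1 range and in non-erythroid cells; lines are medians. Psmb8 is above 1 RPKM in 1 kept cell, against 12 of 13 non-erythroid cells.

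Since the constitutive and inducible catalytic genes stood so far apart, the bases just before their transcription starts are printed for comparison, from RefSeq on GRCm38.p6. The deposited values were made on mm9, so these positions belong to the RefSeq build only. Promoters were found for 38 of 45 members, with 41 entries, and Psmb7 had none. Each line gives 100 bases upstream of the start, 5′ to 3′ on the gene's strand, and capitals mark the searched motifs TGACNNNGC (the core of the antioxidant element, bound by factors such as Nfe2l1 and Nfe2l2) and TTCNNNGAA (the element bound by STAT factors). Psmb5 lies at chr14:54617996-54618095 on the minus strand, Psmb6 at chr11:70525257-70525356 on the plus strand, Psmb8 at chr17:34198095-34198194 on the plus strand (the bases after its start were not matched to a transcript at hand, unlike those of the other 4), Psmb9 at chr17:34187331-34187430 on the minus strand and Psmb10 at chr8:105938393-105938492 on the minus strand.
Psmb5: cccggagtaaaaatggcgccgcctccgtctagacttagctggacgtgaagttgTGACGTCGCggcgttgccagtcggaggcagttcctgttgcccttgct
Psmb6: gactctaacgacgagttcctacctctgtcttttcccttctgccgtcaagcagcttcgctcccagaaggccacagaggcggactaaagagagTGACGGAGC
Psmb8: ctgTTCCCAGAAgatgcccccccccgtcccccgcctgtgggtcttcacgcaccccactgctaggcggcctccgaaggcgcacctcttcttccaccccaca
Psmb9: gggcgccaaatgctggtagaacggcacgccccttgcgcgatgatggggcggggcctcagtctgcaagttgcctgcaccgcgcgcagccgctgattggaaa
Psmb10: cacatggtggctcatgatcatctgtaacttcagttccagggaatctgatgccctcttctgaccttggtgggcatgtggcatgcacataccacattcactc

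Both Psmb5 and Psmb6 held the first motif close to the start, and Psmb8 held the STAT motif. Over the whole promoter table, with windows of 250 bases before to 50 after the start and both strands read, 5 motifs were searched. TGACNNNGC was in 14.6% of the 41 member promoters and 12.4% of 32851 promoters, and TTCNNNGAA in 4.88% and 8.30%. The interferon-type motif, GAAA on either side of any 2 bases, was in 9.76% against 3.44%. It was in the promoters of Psmb3, Psmd4, Psmd9 and Psme1, and not in those of Psmb8, Psmb9 or Psmb10. The CCAAT box was in 36.6% against 37.4%. The Ets-type motif CCGGAAG was in 34.1% of member promoters against 8.86% of all promoters, among them those of Psma6, Psmc1, Psmd2, Psmd4 and Psme3. In the member promoters no match of 1 motif overlapped a match of another, and a match describes the sequence alone.

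The base of the 19S cap holds the ATPases Psmc1 to Psmc6 and, among the members, 3 non-ATPase subunits. The ATPase mean per cell ran from 4.60 to 7.72 in the low range (mean 7.03, SD 1.10, n = 7), from 1.26 to 7.71 in the middle range (mean 5.82, SD 1.38, n = 20) and from 0.03 to 5.01 in the high range (mean 3.00, SD 1.33, n = 28). Cell 68 gave the lowest of the low-range values, and it alone of that range fell among the high-range cells; without it the low-range mean was 7.43 (SD 0.29, n = 6). Of the 6 ATPase genes 6 were called lower in the high range, with a median difference of -4.13. Psmc4 had medians of 227, 131 and 0 RPKM and differed by -5.41. Psmc1 had medians of 186, 83.4 and 0.64 RPKM and differed by -4.58. Psmc5 differed least, by -2.76: its low-range values ran from 1.15 to 241 RPKM with a median of 82.0, and its middle-range median, 88.5 RPKM, was no lower. Without cell 68 it differed by -3.54 from low to high, and by -1.39 from low to middle in place of -0.61.

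The non-ATPase base genes were at means of 6.42, 4.50 and 1.94 from low to high, and 3 of 3 were called lower. Psmd4, a ubiquitin receptor, ran from 186 to 525 RPKM in the low range, with medians of 253, 150 and 2.94 RPKM and a difference of -5.24. Psmd2, a scaffold that binds shuttle factors, had medians of 149, 31.8 and 0 RPKM and differed by -4.97. It was listed in 6 of 7 low-range cells, all but cell 68, and differed by -5.99 without that cell. Psmd1, the other scaffold, differed by -3.23, with medians of 53.7, 8.92 and 0 RPKM.

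The mean over the lid genes was below that over the core genes in every range, though single lid genes such as Psmd14 lay above Psma4 in the middle and high range. The lid mean per cell ran from 2.92 to 7.53 in the low range (mean 6.02, SD 1.59, n = 7), from 0 to 7.18 in the middle range (mean 3.92, SD 1.55, n = 20) and from 0 to 3.66 in the high range (mean 1.85, SD 1.11, n = 28). Cell 68 again gave the low-range minimum, the only one below the high-range maximum, and without it the low-range mean was 6.54 (SD 0.88, n = 6). Of the 8 genes 8 were called lower, with a median difference of -3.95, and all 8 were listed together in 4 of 7 low-range, 2 of 20 middle-range and 0 of 28 high-range cells. Psmd14, the deubiquitinase that releases ubiquitin chains from substrates, ran from 95.7 to 317 RPKM in the low range (median 236), from 0 to 454 in the middle range (median 110) and from 0 to 126 in the high range (median 0). It was listed in 7 of 7, 16 of 20 and 12 of 28 cells, its low and high ranges overlapped slightly, and it differed by -4.95. Psmd8, a late-joining lid subunit, had the largest lid difference, -6.54, with medians of 220, 79.9 and 0 RPKM. Psmd12 had the smallest, -2.94: its medians were 59.4, 56.9 and 0 RPKM, and its middle minus low difference was -0.43, or -1.29 without cell 68.

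The base assembly chaperones Psmd5, Psmd9 and Psmd10 help the ATPase ring form and are no part of the finished particle. Their mean was 5.83 in the low, 4.24 in the middle and 1.83 in the high range, and 3 of 3 were called lower. Psmd9 ran from 4.94 to 219 RPKM in the low range (median 59.8), was at a median of 60.9 in the middle range and was listed in 6 of 28 high-range cells, with a difference of -5.14. Psmd5 had medians of 129, 72.2 and 0 RPKM and differed by -4.47. Psmd10 differed by -2.39. Median levels of Psmd9 in the low and middle range were thus alike, and the high range stood apart from both, while its mean log2 difference from low to middle was -1.33, with 16 of 20 middle-range cells listing it.

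Activators bind the ends of the core in place of the 19S cap. Psme1 and Psme2 form an activator that interferon induces. Psme1 ran from 185 to 406 RPKM in the low range (median 287), had a median of 45.0 in the middle range with 11 of 20 cells listing it, and a median of 0 in the high range with 6 of 28. Its differences were -6.80 from low to high and -4.30 from low to middle, so most of it lay in the first step. Psme2 had medians of 286, 0.17 and 0 RPKM, and differed by -6.16 from low to high and by -5.28 from low to middle, the largest first-step difference of the 45 genes. Psme3, of the nuclear activator, differed by -1.76, the smallest among the 40 genes tested, with a low-range median of 43.8 RPKM and 12 of 28 high-range cells listing it. Psme4, a single-chain nuclear activator, was listed in 1 of 7, 3 of 20 and 1 of 28 cells and did not pass the filter.

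The remaining symbols were few. Psma8 and Psmb11, tissue-restricted subunits of the testis and of the thymic cortex, did not pass the filter: Psma8 was listed in 1 of 7 low-range cells at 8.94 RPKM and in no other kept cell, and Psmb11 in 1 of 20 middle-range cells at 3.87 RPKM. Psmc3ip, which the symbol rule takes in although its protein acts in meiotic recombination and is no subunit, differed by -4.83, with medians of 79.0, 44.9 and 0 RPKM. Psme2b differed by -3.72. It is a close copy of Psme2, and reads could have been split between them, so the values of both are uncertain. Each was listed in 7 of 7, 9 of 20 and 9 of 28 cells, and the 2 were counted as separate members.

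The low-range cells were also compared with the 13 non-erythroid cells, to see which members set the 2 kinds of cell apart. The 40 members tested had a median of 1.57 higher in the low range, against 0.89 over all genes tested. At the median, non-erythroid cells listed 62.2% of the genes tested and low-range cells 77.8%. The core mean per cell ran from 2.30 to 8.83 in the non-erythroid cells. It averaged 7.33 there with a median of 8.37, against 8.93 and 8.98 in the low range. The part of cells with few genes in this difference was not tested. Of the 40 members, 25 were called higher (45% of genes tested) and 1 lower (6.03%), which was Psmb9 at -2.97. Genes were tested only if enough kept cells listed them, so genes listed mainly in non-erythroid cells could not enter. That filter favours calls of higher over calls of lower, among members and among all genes. Over all 45 members, 25 were called higher and 2 lower. Only code SCP-170608 had 3 cells in both sets, so the direction was checked within 1 code. The chaperones Psmd9 and Psmd5 had the largest positive differences, 4.87 and 4.44, with 5 of 13 and 6 of 13 non-erythroid cells listing them against 7 of 7 in the low range. Psme2 was at a like level, with medians of 286 and 449 RPKM and 13 of 13 non-erythroid cells listing it. Psmb8, which did not pass the filter in the kept cells, differed by -7.39. Without cell 68 no code had 3 cells in both sets, and by size alone 29 of the 40 members were higher, against 51.5% of genes tested, and 3 lower, against 6.79%. Psmb9 then differed by -3.54, Psmb8 by -8.66, Psmd9 by 5.47 and Psmd5 by 4.47.

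Other genes of the route were read from short lists. Beside their counts, 71.4% of all genes tested were called lower in the high than in the low range, with a median of -2.60. Of 5 factors that assemble the core, 4 passed the filter and 4 were called lower in the high than in the low range, with a median of -5.52 (-5.28 over the 5). Pomp, the maturation factor of the core, had a low-range median of 389 RPKM, was listed in 7 of 28 high-range cells and differed by -7.12, and Psmg4, a chaperone of the alpha ring, differed by -5.75 and was listed in 0 of 28. Of 9 partners and deubiquitinases 7 of 8 that passed were called lower (median -2.47, and -2.29 over the 9), led by the cap's deubiquitinase Uchl5 at -4.31 and by Shfm1, a small lid subunit outside the symbol rule, at -3.61. Of 10 shuttle and unfolding factors 5 of 6 that passed were called lower (median -2.75, and -1.40 over the 10), with the unfoldase Vcp at -3.89 and the shuttle Ubqln1 at -3.82.

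The ubiquitin genes had a smaller median difference than the proteasome genes, and 1 of them turned with the scale. Of 5 genes 3 of the 4 that passed were called lower, near the 71.4% over all genes tested. The median over the 4 was -2.09 as deposited (-1.39 over the 5) and -0.79 with globin genes removed. Uba1, the main activating enzyme, differed by -2.81. The polyubiquitin gene Ubb had medians of 4859, 3966 and 2304 RPKM and was listed in 28 of 28 high-range cells. It differed by -1.15 as deposited, by 0.23 with globin genes removed and by -2.88 on the total scale. Regulators of proteasome genes were mostly at low levels: 4 of 9 passed and 3 of these were called lower, near the 71.4% over all genes tested, with a median of -3.18 over the 4 and -0.60 over the 9. The largest differences were those of Nfe2l2 at -4.07 and Nfyb at -4.03. Nfe2l1, whose protein drives proteasome genes when the proteasome is blocked, was listed in 2 of 7, 0 of 20 and 1 of 28 cells. Of 10 genes of antigen processing and presentation 5 passed and 3 of these were called lower, below the 71.4% over all genes tested, with a median of -3.94 over the 5 and -0.31 over the 10. They included the class I genes H2-K1 at -5.74 and H2-D1 at -4.96.

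Outside all these lists, the genes whose order over the 55 kept cells was most like the mean of the 14 core genes were named by Spearman's rho. It was 0.91 for Gnb2l1, which encodes a protein bound to the small ribosomal subunit, 0.90 for Rpl7, 0.89 for Rplp0, and 0.88 for Rps2, Sdhd, Gm5148, Rps9, Rpl29 and Rpl30. Gm5148 has no role given here. These values describe cells that share the Hba-a1 level, the number of genes listed and the scale of 1 library each. The core mean itself had a rho of -0.88 with Hba-a1 and 0.92 with the number of genes listed over the same 55 cells, and -0.32 with estimated depth. Within ranges the rho with Hba-a1 was -0.64 (7 cells), -0.78 (20 cells) and -0.53 (28 cells).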

How the data were processed

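Per the submitters' processing notes, the tools were TopHat2 2.0.9, with mm9 as the build; what else was done is not given in the sources used here. As values, the authors deposited RPKM per RefSeq transcript, with 34899 transcripts for 24321 symbols, 1 column per cell and no cell barcodes. These RPKM values were used as deposited, as log2(RPKM + 1), which understates differences of low genes. A gene took its highest transcript. Depth was estimated from the steps between low values, with values within 0.06 of a whole read counted as whole and transcript lengths matched for 97.6% of transcripts to a GRCm38 annotation; a unit may be a read or a pair. On simulated data the estimate gave 0.991 to 1.00 times the true depth.

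A kept cell listed 1000 genes or more at 1 RPKM, at least 3 erythroid markers at 10 RPKM or more, and no non-erythroid list met (at least 3 and at least 50% of its markers at 10 RPKM). These lists were neutrophil, monocyte or macrophage, mast cell or basophil, megakaryocyte, B cell, stem or multipotent cell, stroma or endothelium, and T or NK cell. Every list other than the first 3 and T or NK cell was met by none of the cells with 1000 genes. No doublet caller was run. A gene entered the comparisons when 10 or more kept cells listed it at 1 RPKM. No p-value was computed. Named members were Psmb5 to Psmb10, Psmd14, and in each class the 2 with the largest and the 1 with the smallest difference among genes listed in at least 50% of a range's cells; per other list, the 2 largest. Other members were named where a count needed it. Some genes that the rule names outside the members are not reported here. The members, lists and ranges were chosen with earlier results of these data known. Alternatives changed the scale, pseudocount, transcript rule, gene minimum, ranges, filters, run code and single cells. Python 3.11.15, numpy 2.4.6, pandas 2.3.3, scipy 1.17.1 and matplotlib 3.10.9 were used.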

Additional observations from a re-analysis of the deposited data

Results flagged for a closer look

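Of 39 values checked over the 7 low-range cells, 7 had a single cell far from the other 6. The rule used marks about 1 in 20 groups of independent, normally distributed values. The values here include class means beside their own genes, and some hold zeros, so that rate does not apply. Cell 68 gave 5 of the 7 marked values. In that cell the mean log2 value of the base ATPases was 4.60, where the next lowest cell had 6.94. Psmc1 was at 4.68 (next 6.91), Psmd2 at 0 (next 5.61) and Psmd9 at 2.57 (next 5.71) on the log2 scale. Psmb8 was at 8.94 in the same cell and at 0 in the other 6. The core mean of cell 68, 9.09, was within the range of the other low-range cells. Psmb1 had a log2 value of 7.08 in cell 86, where the next lowest cell had 8.85. The tissue-restricted genes had a mean of 1.69 in cell 31, from Psma8 at 8.94 RPKM, and 0.16 in the next cell.

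Among the 27 cells left out for listing fewer than 1000 genes, 15 listed at least 1 constitutive core gene, with a maximum of 7 of 14.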

How the results depend on the processing

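None of the 6 summary values given here reversed under the alternatives run on them. The median difference of the 40 members between the high and low range, -4.70, was -5.68 on a common total, -5.99 with a pseudocount of 0.1, -2.99 with a pseudocount of 10, -2.71 when cells with at least 500 genes were kept, and -3.01 when at least 2000 genes were required, which left 2 high-range cells. Keeping cells with at least 500 genes gave 20 of 40 members called lower in place of 40, against 50.9% of genes tested under that setting, so the members' share was then near that of all genes. Requiring 2000 genes gave 2 members called higher in place of 0, against 8.74% of genes tested under that setting. It also gave a difference in core genes listed of -2 in place of -6.5. The difference in the immunoproteasome minus catalytic value was then 0.31 in place of 3.29. That value was 0.46 with no cell set aside for non-erythroid markers and 0.87 within code SCP-170608, and the causes of these shifts were not tested. Code SCP-1706080, with 1 low-range cell, gave no value for comparisons with the low range. Leaving out each low-range cell in turn, chosen after seeing the data, gave medians from -4.79 to -4.51 and 40 members called lower. Of genes tested, 71.1% to 76.0% were then called lower. Of the members 0 were called higher, against 2.83% to 4.29% of genes tested. The difference in core genes listed was -6.5, and that in the immunoproteasome minus catalytic value was 2.84 to 4.11. The middle minus low median, -1.88, stayed between -2.96 and -1.11 under its 22 alternatives. No paired analysis was possible because all cells carry 1 group label. The low range holds 7 cells of 1 sample, so no spread between animals is known, and values of 0 in a single cell can be transcripts that were not captured.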
